A study of Mus musculus with 6 samples.

Results

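The Wnt pathway genes described here are 66 protein-coding genes of the 54532 genes in the expression table. They were selected by a rule on the symbol, but this set was chosen with earlier results of these data known. The genes are the Wnt ligands and 2 genes of ligand secretion, the Frizzled, Lrp5, Lrp6 and Ror receptors, the Dkk and Sfrp inhibitors, the R-spondins with their Lgr receptors and the ligases Znrf3 and Rnf43, the cytoplasmic transducers, and the Tcf and Lef factors. Wnt proteins are secreted ligands that bind Frizzled receptors together with Lrp5 or Lrp6. Binding recruits Dishevelled proteins and stops the destruction complex of Axin, Apc and Gsk3b from marking β-catenin for degradation, so that β-catenin can enter the nucleus and act with Tcf and Lef factors. Other branches signal from Frizzled and Ror receptors to cell polarity and calcium. In the nervous system the pathway is known for its roles in neural crest formation, axon guidance and neurite outgrowth.

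Gene expression had been measured by RNA sequencing in N2a cells, a mouse neuroblastoma line, to find genes that differ after knockdown of circRtn4, a circular RNA made from the Rtn4 gene. All 6 libraries came from this line. Their labels give the strain as C57BL/6, which the study names for its mice and primary cortical neurons but not for N2a cells. The 3 control libraries were from cells transfected with si-NC, a control siRNA, and the 3 others from cells transfected with si-circRtn4, the siRNA used to knock down circRtn4. The labels describe culture in growth medium, while the study's general methods add a step in retinoic acid medium after transfection, so whether the sequenced cells had been differentiated is not settled here.

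Of 14 markers of noradrenergic neuroblastoma, 12 averaged 1 FPKM or more. FPKM is the number of fragments scaled to gene length and library size. The summed level of the 14 markers ranged between 2546 and 2799 FPKM for si-NC and between 1103 and 1579 FPKM for si-circRtn4. Of the 12, 6 were called lower and 0 higher, against 4.82% and 4.36% of all genes tested. The part of this shift in the Wnt pathway results was not tested. None of 26 markers of fibroblasts, astrocytes and Schwann cells, leukocytes or epithelium reached a mean of 1 FPKM, and no such list summed to more than 1.41 FPKM in a library. The libraries held 13541198 to 15122063 reads in genes. Rtn4 itself was at 61.0, 66.8 and 69.8 FPKM in si-NC and at 50.1, 56.7 and 62.7 FPKM in si-circRtn4 libraries, a count that cannot separate its linear and circular transcripts. Its log2 fold change was -0.22 (limma, adjusted p = 0.216, and 0.0447 with replicate number as a block).

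The study connects circRtn4 with the microRNA miR-24-3p. Both small RNAs are shown because their seeds are searched for in the Wnt pathway genes below. The microRNA is written with its seed, bases 2 to 8, in capitals. The siRNA is written as the strand the study lists, with the 7 bases that would pair with the seed of its guide strand in capitals, on the assumption that the guide is the reverse complement of the listed strand.
mmu-miR-24-3p: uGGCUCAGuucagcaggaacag
si-circRtn4: cttcagatgagACCCTTTt

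Of the Wnt pathway genes expressed in N2a cells, 3 were lower after si-circRtn4, namely the ligand gene Wnt2, the secreted inhibitor family gene Dkk3 and the β-catenin gene Ctnnb1, and the others were not called. Of the 66 genes, 26 averaged 1 FPKM or more across the 6 libraries and were tested, 28 were above 0 but averaged less, and 12 were listed at 0 in all 6 libraries. The test was limma on log2(FPKM + 1), adjusted by Benjamini-Hochberg over 12749 genes and called at an adjusted p under 0.05. It called 3 of the 26 lower (11.5%) and 0 higher, while 4.82% of all genes tested were called lower and 4.36% higher (9.19% in either direction). The unadjusted p was under 0.05 for 4 of the 26, against 25.9% of all genes tested. With replicate number as a block, 1 gene was called higher (Dkk1) and 3 lower, against 9.29% and 9.75% of all genes tested. The median log2 fold change of the 26 was 0.07, beside 0.0020 over all genes tested, and 17 of them were above 0 (50.4% of all genes tested were). The median size of the change without its sign was 0.137 on the log2 scale, beside 0.144 over all genes tested.

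**Figure D1:**
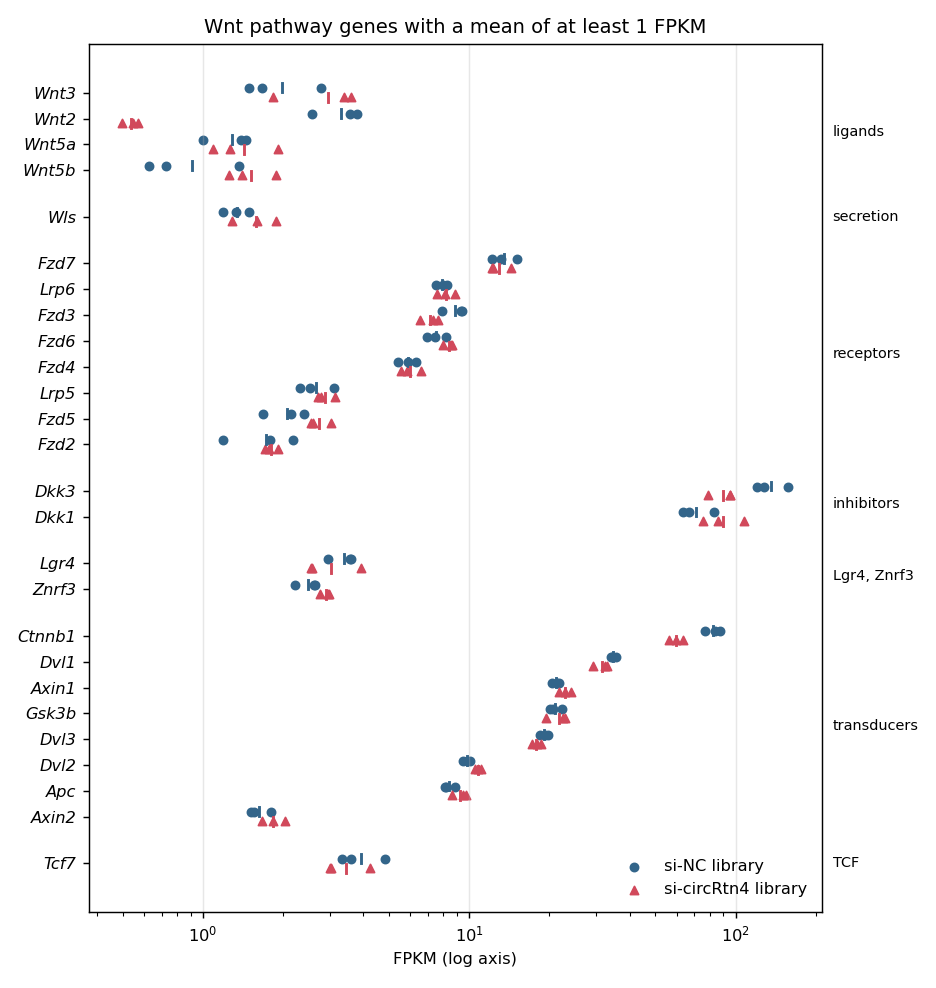
FPKM (log axis) of the 26 Wnt pathway genes that averaged 1 FPKM or more, grouped by role, with a blue circle for each si-NC library, a red triangle for each si-circRtn4 library and a short vertical line at each group mean. Wnt2 is set apart, with 2.57 to 3.78 FPKM in si-NC and 0.499 to 0.570 FPKM in si-circRtn4 libraries, and Dkk3, Dkk1 and Ctnnb1 are the highest genes.

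Among the ligands, Wnt2 changed most. Wnt2 (ENSMUSG00000010797) encodes a ligand of the canonical pathway and lies on chromosome 6, minus strand, from 17988940 to 18030585 in GRCm38. Its level was 3.56, 3.78 and 2.57 FPKM in si-NC and 0.499, 0.570 and 0.549 FPKM in si-circRtn4 libraries. The groups were far apart, and the 3 si-circRtn4 libraries were close to each other. The mean was 3.30 ± 0.647 FPKM in si-NC and 0.539 ± 0.0366 FPKM in si-circRtn4 (SD, n = 3 each), so that 16.3% of the control level was left. The log2 fold change on the log2(FPKM + 1) scale was -1.47 (SE 0.14, 95% interval -1.81 to -1.14, limma adjusted p = 0.00279), rank 25 among the falls of all genes tested. The added 1 in this scale shrinks the change of a gene at so low a level: with 0.1 in its place the change was -2.39, and limma-voom on the reads gave -2.54. These levels rested on 16 to 123 reads per library. The exact permutation test of the FPKM values gave p = 0.1, the smallest that 3 libraries against 3 allow. In bulk RNA, fewer cells that express a gene and less RNA per cell cannot be told apart.

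With this fall the order of the ligands changed. Wnt2 made up 29.8 to 40.4% of the summed FPKM of the 19 Wnt ligand genes in si-NC libraries and was the highest of them in all 3. In the si-circRtn4 libraries it made up 4.82 to 8.69% and ranked 5 or 6. Wnt3, also a canonical ligand, was then the highest in all 3, with 28.0 to 41.0% of the sum against 17.8 to 23.3% in si-NC. The level of Wnt3 itself was 2.78, 1.67 and 1.49 FPKM in si-NC and 3.59, 1.84 and 3.40 FPKM in si-circRtn4 libraries. These ranges overlapped, and the log2 fold change of 0.40 did not pass the test (95% interval -0.14 to 0.93, limma adjusted p = 0.328).

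The other ligands above 1 FPKM were Wnt5a and Wnt5b, which act mainly through the branches without β-catenin. Wnt5b was at 1.37, 0.627 and 0.727 FPKM in si-NC and 1.88, 1.26 and 1.40 FPKM in si-circRtn4 libraries, with overlapping groups and a log2 fold change of 0.41 (limma adjusted p = 0.222). Wnt5a differed by 0.08 on the log2 scale, with a 95% interval from -0.31 to 0.47. The summed FPKM of all 19 ligand genes was 9.54 ± 2.29 in si-NC and 8.40 ± 1.89 in si-circRtn4 (SD, n = 3 each, exact permutation p = 0.6). Without Wnt2 the sums were 6.24 ± 1.88 and 7.86 ± 1.93 FPKM (SD, n = 3 each, exact permutation p = 0.4). Wnt2 was left out because it fell in these same data, so this sum is no independent test. Between libraries with the same replicate number, the sum without Wnt2 was higher in si-circRtn4 each time (9.84 against 8.36, 5.99 against 5.57 and 7.74 against 4.78 FPKM), whereas the groups as a whole overlapped. The labels do not say that a shared number marks a pair. Wls, which carries Wnt proteins to the cell surface, was at 1.34 ± 0.151 FPKM in si-NC and 1.59 ± 0.302 FPKM in si-circRtn4 (SD, n = 3 each) and was not called.

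**Figure D2:**
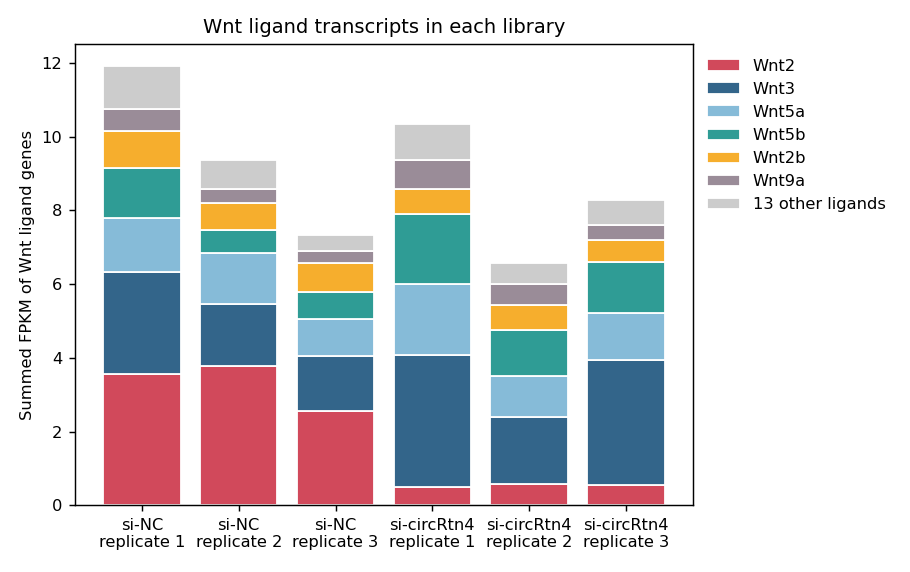
Stacked bars of the FPKM of the 19 Wnt ligand genes in each library, with 6 ligands shown singly and the other 13 summed. The Wnt2 segment is 2.57 to 3.78 FPKM tall for si-NC and 0.499 to 0.570 FPKM tall for si-circRtn4, while the whole bars of the groups overlap in height.

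None of the 8 receptor genes tested was called. The 10 Frizzled genes summed to 39.9 ± 3.72 FPKM in si-NC and 39.7 ± 2.65 FPKM in si-circRtn4 (SD, n = 3 each, exact permutation p = 0.9). Fzd7 was the highest in every library, with 31.3 to 34.4% of this sum, and its log2 fold change was -0.05 (95% interval -0.29 to 0.18). Fzd4, Fzd6 and Fzd2 had log2 fold changes of 0.02, 0.14 and 0.06, and the co-receptors Lrp6 and Lrp5, which make Frizzled signalling canonical, of 0.04 and 0.09. The 95% interval of Fzd2 ran from -0.31 to 0.42, and no interval here is narrow enough to show that a level stayed the same.

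Among the 8 receptor genes tested, Fzd3 and Fzd5 were those whose groups did not overlap. Fzd3 (ENSMUSG00000007989), a receptor needed for axon tracts and planar polarity, lies on chromosome 14 from 65192449 to 65262463. It was at 9.41, 9.28 and 7.91 FPKM in si-NC and at 7.64, 6.52 and 7.28 FPKM in si-circRtn4 libraries. The highest si-circRtn4 library was only just below the lowest si-NC library. Its log2 fold change was -0.28 (SE 0.094, unadjusted p = 0.0198, limma adjusted p = 0.114), and Fzd3 moved from the second to the third place among the Frizzled genes in all 3 si-circRtn4 libraries. Fzd5 was at 2.15, 2.41 and 1.68 FPKM in si-NC and at 3.04, 2.59 and 2.56 FPKM in si-circRtn4 libraries, and its log2 change was 0.28 (95% interval -0.01 to 0.57, limma adjusted p = 0.207). Neither gene passed the test. Over the 26 genes, the groups did not overlap for 5 with lower and 3 with higher si-circRtn4 values. Of all genes tested, 15.5% and 16.2% were so separated, and no difference from these shares was tested.

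The secreted inhibitor genes Dkk3 and Dkk1 were the most abundant of the 66 genes, and Dkk3 was called lower. Dkk3 (ENSMUSG00000030772), an atypical Dickkopf protein whose effect on Wnt signalling varies with cell type, lies on chromosome 7, minus strand, from 112116017 to 112159057. Its level was 157.6, 127.9 and 120.1 FPKM in si-NC libraries and 95.1, 78.6 and 95.6 FPKM in si-circRtn4 libraries. All 3 si-circRtn4 libraries were below all si-NC libraries, and si-NC replicate 1 was the highest. The mean fell from 135 ± 19.8 to 89.8 ± 9.69 FPKM (SD, n = 3 each). The log2 change was -0.58 (SE 0.13, 95% interval -0.87 to -0.29, limma adjusted p = 0.0310, exact permutation p = 0.1). This call was close to the threshold: it was lost in 8 of 14 alternative settings, where the adjusted p reached 0.102, while the direction held in all of them.

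Dkk1, which blocks Lrp5 and Lrp6 and is itself induced by Wnt signalling, was the second most abundant of the 66 genes. It was at 66.9, 63.2 and 83.1 FPKM in si-NC and at 75.7, 86.1 and 107.6 FPKM in si-circRtn4 libraries. The groups overlapped, although each si-circRtn4 library was above the si-NC library with the same replicate number. The log2 fold change was 0.33 (95% interval -0.02 to 0.68, limma adjusted p = 0.222). With replicate number as a block Dkk1 passed the threshold (limma adjusted p = 0.0297). Dkk3 held 59.1 to 70.2% of the summed FPKM of the 4 Dkk genes in si-NC libraries and 47.0 to 55.7% in si-circRtn4 libraries. Dkk1 was therefore the higher of the pair in 2 of the 3 si-circRtn4 libraries and in 0 of the 3 si-NC libraries. Sfrp1, Sfrp2, Sfrp4 and Sfrp5, which bind Wnt proteins outside the cell, and Dkk2 and Dkk4 were all below 1 FPKM.

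Of the R-spondin branch, which protects Frizzled receptors from removal, only the receptor Lgr4 and the ligase Znrf3 reached 1 FPKM. Lgr4 was at 3.38 ± 0.367 FPKM in si-NC and 3.02 ± 0.792 FPKM in si-circRtn4 (SD, n = 3 each), and its log2 change was -0.14. Znrf3, which marks Frizzled receptors for removal, was at 2.22, 2.61 and 2.63 FPKM in si-NC and 2.98, 2.95 and 2.75 FPKM in si-circRtn4 libraries. Its groups did not overlap, but the log2 fold change of 0.16 did not pass the test (limma adjusted p = 0.354). Rspo2, Rspo3 and Rspo4 were listed at 0 in every library, and Rspo1 had 2 reads in all si-NC libraries together and 7 in all si-circRtn4 libraries.

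Of the 8 cytoplasmic transducers tested, Ctnnb1 alone was called. Ctnnb1 (ENSMUSG00000006932) encodes β-catenin, the pathway's transducer to the nucleus and also a part of adherens junctions, and lies on chromosome 9, plus strand, between 120929216 and 120960507. Its level was 76.6, 87.0 and 83.6 FPKM in si-NC and 56.2, 63.2 and 59.7 FPKM in si-circRtn4 libraries. The groups were clearly apart. The mean fell from 82.4 ± 5.31 to 59.7 ± 3.51 FPKM (SD, n = 3 each), which left 72.5% of the control level. The log2 fold change was -0.46 (SE 0.082, 95% interval -0.65 to -0.27, limma adjusted p = 0.0170, exact permutation p = 0.1). The call was lost when si-NC replicate 2 was left out (limma adjusted p = 0.0735), and likewise for si-NC replicate 3 (0.0577) or si-circRtn4 replicate 1 (0.0531). Ulk4 overlaps Ctnnb1 on the other strand but was at 0.534 to 0.943 FPKM, and the other overlapping genes, 4930593C16Rik and Mir7090, had at most 1 read in a library. The test concerns β-catenin mRNA, and the protein, at which the destruction complex acts, was not measured.

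The destruction complex genes did not pass the test in either direction. The scaffold gene Axin1 was at 21.2 ± 0.711 FPKM in si-NC and 22.9 ± 1.15 FPKM in si-circRtn4, and the kinase gene Gsk3b at 21.0 ± 1.19 and 21.6 ± 1.89 FPKM (SD, n = 3 each). Apc, the other scaffold, had a log2 fold change of 0.13 (95% interval -0.05 to 0.31). Axin2, a scaffold that Wnt signalling itself induces and that is often read as its reporter, was at 1.80, 1.51 and 1.56 FPKM in si-NC and 2.03, 1.83 and 1.66 FPKM in si-circRtn4 libraries. Its groups overlapped, with a log2 fold change of 0.11 (95% interval -0.16 to 0.39, limma adjusted p = 0.593).

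The 3 Dishevelled genes, which relay the signal from Frizzled, were not called, though their shares shifted slightly. Dvl1 was at 35.6, 34.1 and 34.3 FPKM in si-NC and at 29.2, 32.4 and 33.0 FPKM in si-circRtn4 libraries, a log2 fold change of -0.13 (limma adjusted p = 0.308). Dvl2 was at 10.1, 9.80 and 9.45 FPKM in si-NC and at 10.7, 10.5 and 11.1 FPKM in si-circRtn4 libraries, a log2 fold change of 0.13 (limma adjusted p = 0.286). For both genes the groups did not overlap, in opposite directions. Dvl3 had a log2 fold change of -0.09. Dvl2 made up 15.2 to 15.5% of the summed FPKM of the Dishevelled genes in si-NC and 17.1 to 18.8% in si-circRtn4 libraries. The sum itself was 63.6 ± 1.72 and 60.2 ± 2.71 FPKM (SD, n = 3 each, exact permutation p = 0.1, the smallest possible). With FPKM scaled to the same total in every library, the log2 fold changes were -0.044 for Dvl1, -0.006 for Dvl3 and 0.21 for Dvl2. The sum was not tested on that scale.

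**Figure D3:**
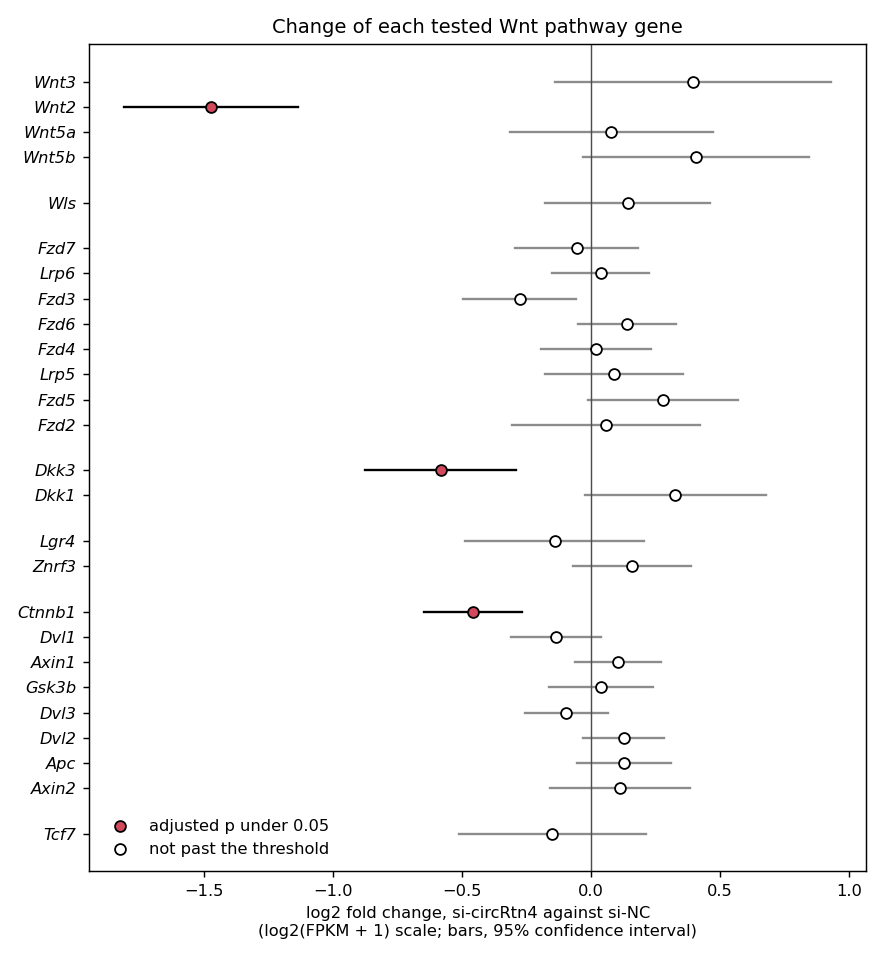
Log2 fold change of si-circRtn4 against si-NC for the 26 tested genes on the log2(FPKM + 1) scale, in the order of their roles, with bars for the 95% confidence interval and filled points for an adjusted p under 0.05. Wnt2 (-1.47), Dkk3 (-0.58) and Ctnnb1 (-0.46) are filled, and every other interval but that of Fzd3 includes 0.

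Of the nuclear factors, which bring β-catenin to its target genes, only Tcf7 reached a mean of 1 FPKM. Tcf7 was at 4.85, 3.59 and 3.32 FPKM in si-NC and at 4.26, 3.01 and 3.04 FPKM in si-circRtn4 libraries. The groups overlapped, the log2 fold change was -0.15 (limma adjusted p = 0.601), and Tcf7 held 69.5 to 84.9% of the summed FPKM of the 4 factors throughout. The 3 others were tested in 2 alternative fits, limma with no filter on low values and a fit added after the data were seen, limma-voom on the reads of 14484 genes that averaged 10 reads or more. The fit on reads held 36 of the 66 genes, 10 of them below 1 FPKM, and called 5 lower and 0 higher, while 5.59% of its genes were called lower and 7.06% higher. Its 5 calls were Wnt2, Dkk3, Ctnnb1, Tcf7l1 and Tcf7l2.

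Tcf7l1, mainly a repressor of Wnt targets, had 15, 18 and 18 reads in si-NC libraries and 11, 3 and 4 reads in si-circRtn4 libraries. Its log2 fold change was -1.65 in that fit (limma-voom adjusted p = 0.0419). Tcf7l2, which can activate or repress, had 162, 89 and 112 reads in si-NC and 42, 45 and 100 reads in si-circRtn4 libraries, a log2 fold change of -1.03 (limma-voom adjusted p = 0.0495). The Tcf7l1 groups did not overlap, but si-circRtn4 replicate 3 lay within the si-NC range of Tcf7l2. Both calls rested on few reads or stood at the threshold. With no filter on low values, where limma called 0.918% of 28442 genes lower and 0.738% higher (1.66% in either direction), neither was called, and the smallest adjusted p among the Wnt pathway genes below 1 FPKM was 0.161. Lef1 had a log2 fold change of 0.66 in the fit on reads (limma-voom adjusted p = 0.212).

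The other genes of that fit were the ligands Wnt2b, Wnt9a, Wnt10b and Wnt11, the receptors Fzd9 and Lgr5, and Porcn, which adds the lipid that Wnt proteins need for secretion. Lgr5, an R-spondin receptor and Wnt target, had 64, 80 and 68 reads in si-NC and 39, 48 and 48 reads in si-circRtn4 libraries. These groups did not overlap, and the log2 fold change of -0.65 did not pass the threshold (limma-voom adjusted p = 0.0788). Porcn differed by 0.73 and Fzd9 by 0.80 on the log2 scale (limma-voom adjusted p = 0.152 and 0.167). Their groups did not overlap either, with the si-circRtn4 values higher. For Wnt2b the groups also did not overlap, with the si-circRtn4 values lower (log2 fold change -0.34, limma-voom adjusted p = 0.416). The remaining 18 genes above 0 had at most 12 reads in any library and entered only the fit with no filter, which called none of them. They were the ligands Wnt1, Wnt4, Wnt6, Wnt7b, Wnt10a and Wnt16, the receptor Fzd1, the inhibitors Dkk2, Dkk4, Sfrp1, Sfrp2, Sfrp4 and Sfrp5, then Rspo1, Lgr6 and Rnf43, and the Dishevelled-binding feedback inhibitors Nkd1 and Nkd2. Nkd1 had 5 reads in the si-NC libraries together and 0 in the si-circRtn4 libraries. The 12 genes listed at 0 in every library were Wnt3a, Wnt7a, Wnt8a, Wnt8b, Wnt9b, Fzd8, Fzd10, Ror1, Ror2, Rspo2, Rspo3 and Rspo4. A count of 0 allows up to 3 reads per library, which is 0.0335 to 0.123 FPKM for genes of these lengths.

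The 3′ UTRs of the tested genes were searched for the 7-base matches of the 2 seeds, CTGAGCC for miR-24-3p and ACCCTTT for the guide of si-circRtn4, on the transcript strand. A match of miR-24-3p was found in 5 of the 26 genes (19.2%), Axin1, Fzd3, Fzd5, Gsk3b and Tcf7, beside 19.6% of the 10688 genes tested that have a 3′ UTR of at least 20 bases. The guide match was found in 7 of the 26 (26.9%), Apc, Dkk1, Fzd4, Fzd5, Fzd7, Gsk3b and Tcf7, beside 12.5% of the same genes. These shares were not adjusted for 3′ UTR length, and a longer 3′ UTR has more room for a match. Whether the guide match is enriched was therefore not tested. None of these 7 genes was called in the reported test. Only the transcript with the longest annotated 3′ UTR of each gene was searched. None of the 3 genes called lower had either match in this 3′ UTR, which is 874 bases long for Wnt2, 2194 for Dkk3 and 990 for Ctnnb1. Ctnnb1 held 1 miR-24-3p match in the searched transcript before the 3′ UTR. Shown are the miR-24-3p matches of Fzd3 and Fzd5, whose groups did not overlap in opposite directions, and the guide match of Dkk1. Dkk1 was called higher only with the replicate block. The guide matches of Fzd5 and of the other genes are not shown. Each match is in capitals, read 5′ to 3′ on the minus strand of GRCm38 (GENCODE M21). The Fzd3 match lies at chr14:65196350-65196356, the Fzd5 matches at chr1:64733083-64733089 and chr1:64731089-64731095, and the Dkk1 match at chr19:30546799-30546805.
Fzd3, miR-24-3p match: tctaaccaCTGAGCCattcctcc
Fzd5, first miR-24-3p match: agttaagcCTGAGCCagctttat
Fzd5, second miR-24-3p match: atttattaCTGAGCCaaatgagg
Dkk1, guide match: aatgtgtaACCCTTTctgcttca
All 3 microRNA matches are followed by an A. The Fzd3 values were lower and the Fzd5 values higher in the si-circRtn4 libraries, while the Dkk1 mean was higher with overlapping groups. None of these genes passed the reported test. Whether a match had a part in any of these differences was not tested. The 3′ UTRs that hold a match of either seed run from 750 bases in Axin1 to 10270 bases in Fzd3. A match is a description of the sequence and not a measured site.

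**Figure D4:**
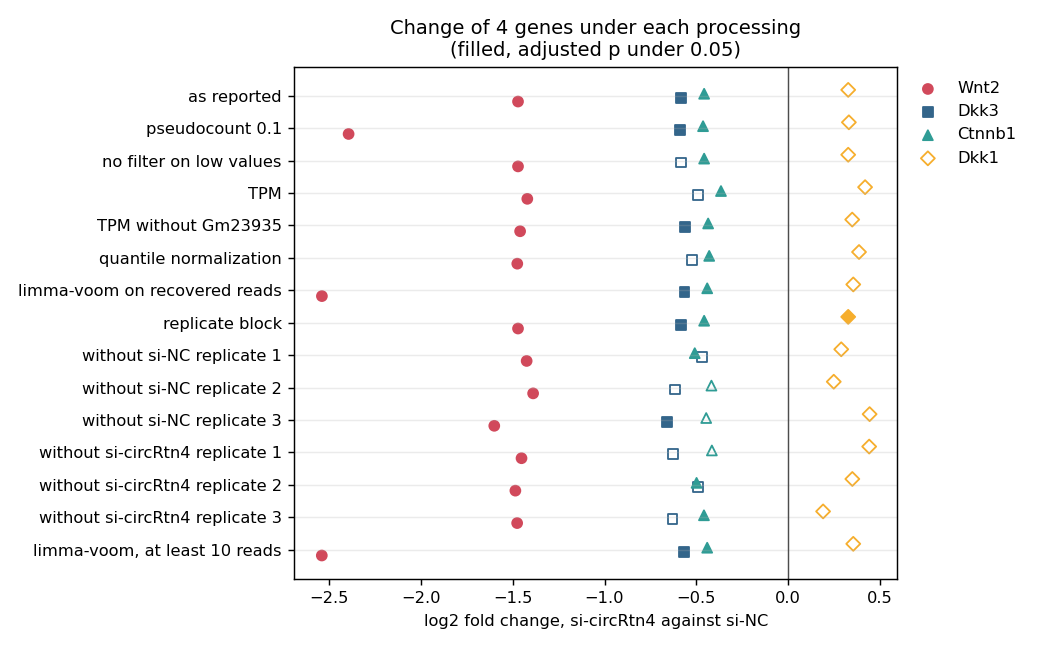
Log2 fold change of Wnt2, Dkk3, Ctnnb1 and Dkk1 as reported and under each of 14 alternative settings, filled where the adjusted p was under 0.05. Wnt2 is filled in every setting, Ctnnb1 open in 3 of the 14, Dkk3 open in 8 of the 14, and Dkk1 filled only with the replicate block.

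The other genes of the pathway were read from 4 hand-written lists of 65 genes in the table, 43 of which were tested. Of these, 4 were called higher and 3 lower, against 4.36% and 4.82% of all genes tested, and the median log2 fold change was -0.00054, beside 0.0020 over all genes tested. The calls above 0 were 3 of 11 nuclear cofactors and 1 of 20 genes of the destruction complex and its regulators. Of the 11 nuclear cofactors, 6 had a log2 fold change below 0, and none of these passed the test. The largest log2 fold change in this list, 0.80, was not called either. The unadjusted limma p was under 0.05 for 6 of the 11, against 25.9% of all genes tested. Tle4, a Groucho co-repressor that binds Tcf factors, was at 15.1, 16.0 and 14.7 FPKM in si-NC and at 24.6, 20.9 and 23.1 FPKM in si-circRtn4 libraries (log2 fold change 0.55, limma adjusted p = 0.00990). Bcl9, a co-activator that binds β-catenin, was at 5.24, 5.28 and 4.83 FPKM in si-NC and at 7.97, 7.88 and 7.17 FPKM in si-circRtn4 libraries (log2 fold change 0.50, limma adjusted p = 0.0106). Both sets of groups were apart, so a co-repressor and a co-activator rose together. Ctnnbip1, which keeps β-catenin from Tcf factors, rose by 0.36 on the log2 scale (limma adjusted p = 0.0288). Csnk1e, a kinase that acts on Dishevelled, rose by 0.33 (limma adjusted p = 0.0331).

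The genes called lower were 2 of 5 secreted antagonists and ligand handling genes and 1 regulator of the destruction complex. Apcdd1, a membrane protein that inhibits Wnt signalling, was at 8.17, 7.98 and 7.76 FPKM in si-NC and at 4.75, 4.09 and 5.58 FPKM in si-circRtn4 libraries. These groups were well apart (log2 fold change -0.64, limma adjusted p = 0.0124). Cthrc1, a secreted protein that helps Wnt proteins bind their receptors, had a log2 fold change of -0.38 (limma adjusted p = 0.0469), and Tnks, a tankyrase that marks Axin for degradation, one of -0.37 (limma adjusted p = 0.0279). None of the 7 co-receptor and planar polarity genes tested was called. The calls of Tle4 and Bcl9 held in all 14 alternative settings, those of Cthrc1 and Ctnnbip1 were lost in 7 each and those of Csnk1e and Tnks in 6 each, and that of Apcdd1 in 2.

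Of 29 genes known as Wnt targets outside the 66, 10 were tested, with 1 called higher and 2 lower, against 4.36% and 4.82% of all genes tested. Ccnd1, the cyclin D1 gene, was at 79.4, 81.0 and 79.9 FPKM in si-NC and at 57.5, 57.2 and 61.0 FPKM in si-circRtn4 libraries. Its groups were apart by far more than the spread within them (log2 fold change -0.45, limma adjusted p = 0.00970). Sox9, a transcription factor gene of neural crest and glia, fell by 0.44 on the log2 scale (limma adjusted p = 0.0323), and Vegfa, which encodes an angiogenic growth factor, rose by 0.56 (limma adjusted p = 0.0404). The Sox9 and Vegfa calls were lost in 7 of 14 alternative settings each, and the Ccnd1 call in 1. The median log2 fold change of the 10 was 0.08. All of these genes also answer to other signals.

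**Figure D5:**
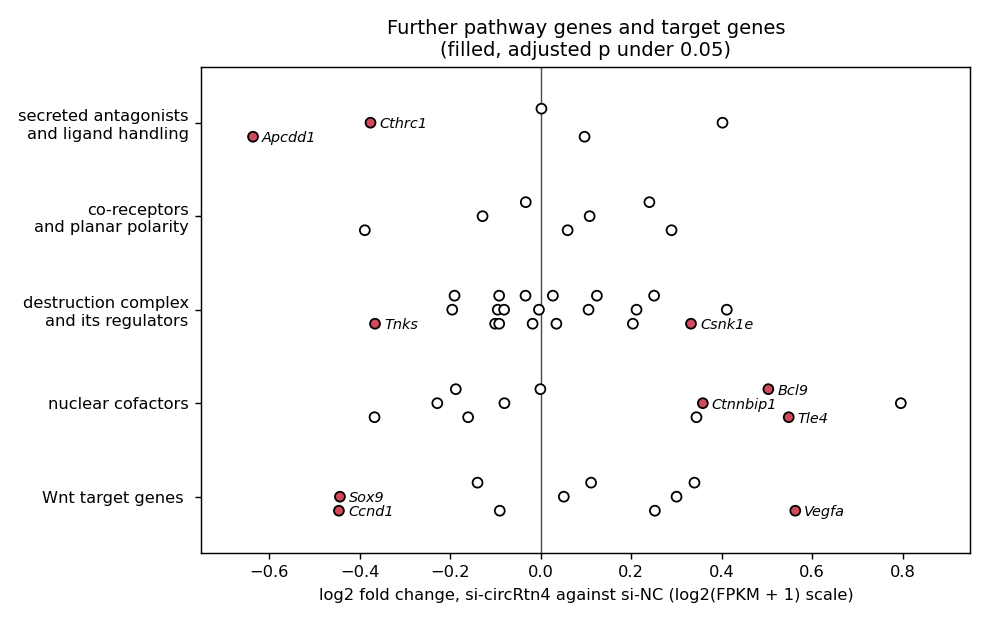
Log2 fold change of the 43 further pathway genes in 4 lists and of the 10 Wnt target genes tested, on the log2(FPKM + 1) scale, with a filled and named point for an adjusted p under 0.05. Called genes lie on both sides of 0, from Apcdd1 at -0.64 to Vegfa at 0.56, and the nuclear cofactors called (Tle4, Bcl9 and Ctnnbip1) are all above 0. The largest log2 fold change, 0.80, is that of a nuclear cofactor not called.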

How the data were processed

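RNA of 3 si-NC and 3 si-circRtn4 libraries of N2a cells was sequenced, and the authors deposited 1 table of FPKM by gene, with lengths and coordinates. The counting tool and its use of strand are not given in the sources used here. Reads of Ctnnb1, Dvl1, Dvl2 and Wnt5b therefore cannot be told apart where each overlaps a protein-coding gene of the other strand, while Wnt2, Dkk3 and Dkk1 overlap no annotated gene. The submitters' processing notes name Bowtie 0.12.2, mm8 and mm9 with no role, but 53499 of the 54532 genes have the GRCm38 coordinates of GENCODE M21, so GRCm38 positions are printed. The table's 6 columns of other samples were not used. Multiplied by gene length, 100% of the values were whole multiples of the smallest unit in their library (tolerance 0.01), so reads could be recovered.

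The 12749 genes that averaged 1 FPKM or more were tested on the log2(FPKM + 1) scale by limma 3.58.1 (R 4.3.3), with a mean-variance trend and Benjamini-Hochberg adjustment. Two-sided exact permutation tests (Python 3.11.15, scipy 1.17.1) cover single values. Nothing says that replicates came from separate cultures, so p-values measure the spread between these libraries, which may be technical. On simulated reads with 194 genes changed by a fold of 2 among 12818 tested, 84.5% were recovered and 7.87% of calls were false. The simulation gave every gene the same spread between libraries (dispersion 0.01) and had no replicate effect. Its rates check the fit and do not carry over to these data, where Dkk3 and Ctnnb1 changed by folds of only 1.51 and 1.38.

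Replicate numbers are shared between groups. Deviations from each group's mean had correlations of 0.331, 0.190 and 0.226 for the same number and at most 0.00913 for different numbers. The deviations of a group cancel out, so positive values for the same number push the others down, and this contrast is partly built in. The numbers were taken to pair the libraries in the blocked fit, an alternative. The Wnt pathway genes and the lists were chosen with earlier results of these data known. Every gene that averaged 1 FPKM or more is named, with each library's value where it passed the test or had an unadjusted p under 0.05 and groups apart. Values of each library for other genes were added after they were seen. Further pathway and target genes are named where called, up to 4 per direction. The microRNA sequence is from RefSeq (GRCm38.p6) and the siRNA from the study's list.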

Additional observations from a re-analysis of the deposited data

How the results depend on the processing

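Over 14 alternatives (0.1 in place of 1 in the log, no filter on low values, TPM with and without Gm23935, quantile normalization, limma-voom with 2 filters, the replicate block, and each library left out), none of the 364 values of the 26 Wnt pathway genes reversed a call, 11 lost one and 1 gained one. Without filter, TPM and quantile normalization each cost Dkk3 its call, with limma adjusted p of 0.102, 0.0563 and 0.0586. Leaving out 1 library left 1 to 2 genes lower, with 1 (Wnt2) without si-NC replicate 2 or si-circRtn4 replicate 1, and 0 higher, and the median log2 fold change ran from 0.04 to 0.11. With the replicate block, which pairs libraries by number, 1 Wnt pathway gene was higher, and no call among these genes changed but that of Dkk1.

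Of the further pathway genes, 2 to 3 were higher and 0 to 2 lower with 1 library left out, the 0 without si-NC replicate 2. With no filter 2 were higher and 0 lower, by TPM 1 was lower, and with the replicate block 6 were higher and 4 lower (Tle6, Prickle2 and Cby1 in addition), against 9.29% and 9.75% of all genes tested. Of the target genes, 0 to 1 were higher and 0 to 2 lower with 1 library left out. With no filter 0 were higher and 1 lower, by TPM 2 higher and 1 lower, by quantile normalization 0 higher, and by limma-voom and with the replicate block 2 higher each. These counts are small, and the causes of their shifts were not tested. Of the 40 genes below 1 FPKM, depth limits the 18 that had at most 12 reads in any library and the 12 that had none, while the other 10 were left out of the reported test by its filter on FPKM.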
